A study of Mus musculus with 12 samples.

Results

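Sox1, Sox2, Sox3, Pax3, Pax6, Pax7, Zic1, Zic2 and Zic5, transcription factor genes of neural progenitors, were followed by bulk mRNA-Seq of NE-4C cells. The genes were taken by symbol, and all 9 were found among the 57010 genes of the table. NE-4C is a line of embryonic mouse brain cells that lack p53, a loss that every group shared. WT NO and KO NO cells received no retinoic acid (RA), while WT RA and KO RA cells received all-trans RA at 1 µM for 24 h and were collected 3 days after induction. No untreated culture of the same 3 days is described. RA and time in culture therefore cannot be told apart in the comparisons of RA with NO cells. KO cells carried a CRISPR/Cas9 deletion of exon 4 of Faf2, an adaptor for extracting misfolded proteins from the endoplasmic reticulum. The paper describes them as a knockout line, made by picking and expanding colonies. The knockout and other properties of that line cannot be told apart in the comparisons of KO with WT cells. Each of the 4 groups had 3 libraries, from separate passages. The study asked whether cells without FAF2 could still mount the transcriptional response to RA that precedes neurons, and the genes below are among the regulators of that step.

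Sox1, Sox2 and Sox3 form the SoxB1 group, HMG-box factors that overlap in function and keep neural cells in the progenitor state. Sox2 is also a core factor of pluripotent cells, and Sox1 is the member whose onset marks neural commitment. Pax3 and Pax7 are paired-box factors of the dorsal neural tube, neural crest and muscle precursors, and Pax6 is a paired-box factor of forebrain, eye and ventral spinal cord progenitors. The Zic genes encode zinc-finger factors of the neural plate and its dorsal border. They lie in divergent pairs in the genome, Zic1 with Zic4 and Zic2 with Zic5.

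The 250 bases before the annotated start are shown for the 5 genes that passed the test in at least 1 comparison below, because Zic2 and Zic5 moved together and Sox1 and Pax3 rose with RA. They were read 5′ to 3′ on the strand of the gene from the GRCm39 genome, Sox1 at chr8:12445045-12445294 on the plus strand, Pax3 at chr1:78173772-78174021 on the minus strand, Pax6 at chr2:105498984-105499233 on the plus strand, Zic2 at chr14:122711577-122711826 on the plus strand and Zic5 at chr14:122703090-122703339 on the minus strand. Capitals mark the GC box (GGGCGG), the CCAAT box (CCAAT) and the half-site bound by RA receptors (AGGTCA), on either strand.
Sox1: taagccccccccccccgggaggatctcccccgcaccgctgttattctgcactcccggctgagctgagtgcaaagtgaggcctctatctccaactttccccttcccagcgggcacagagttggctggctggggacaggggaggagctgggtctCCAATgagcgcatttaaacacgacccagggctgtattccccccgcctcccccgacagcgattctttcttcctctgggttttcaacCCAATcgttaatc
Pax3: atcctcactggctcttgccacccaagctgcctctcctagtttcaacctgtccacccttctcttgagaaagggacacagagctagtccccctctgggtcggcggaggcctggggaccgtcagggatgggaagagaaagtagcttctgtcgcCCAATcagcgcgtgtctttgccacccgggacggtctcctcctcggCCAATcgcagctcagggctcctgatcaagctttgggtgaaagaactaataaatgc
Pax6: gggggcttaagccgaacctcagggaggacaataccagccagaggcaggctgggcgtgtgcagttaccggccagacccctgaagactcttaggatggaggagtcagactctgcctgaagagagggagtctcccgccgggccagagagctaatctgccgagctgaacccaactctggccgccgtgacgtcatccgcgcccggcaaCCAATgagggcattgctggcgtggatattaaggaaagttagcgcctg
Zic2: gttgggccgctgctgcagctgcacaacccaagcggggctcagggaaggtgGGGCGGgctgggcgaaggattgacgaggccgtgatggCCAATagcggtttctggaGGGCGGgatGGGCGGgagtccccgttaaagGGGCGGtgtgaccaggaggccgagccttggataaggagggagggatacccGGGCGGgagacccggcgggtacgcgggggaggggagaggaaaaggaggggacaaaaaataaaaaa
Zic5: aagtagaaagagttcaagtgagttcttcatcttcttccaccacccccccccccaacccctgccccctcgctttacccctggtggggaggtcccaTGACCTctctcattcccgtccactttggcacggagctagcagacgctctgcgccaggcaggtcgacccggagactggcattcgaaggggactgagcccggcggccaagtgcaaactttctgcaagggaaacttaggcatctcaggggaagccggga

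The CCAAT box was present in 7 of the 9 promoters (all but Pax7 and Zic5) and in 36.5% of 21770 promoters of the same length. Zic2 held 5 GC boxes, a motif found in 36.3% of all promoters and in 4 of these 9. The RA receptor half-site was found once, in Zic5 at 156 bases before its start, and in 13.1% of all promoters. Direct repeats of that half-site with 2 or 5 bases between them were found in none of the 9. The SOX site ACAATG, present in 9.41% of promoters, was not found either, nor was the TATA box TATAAA (11.9%). These motifs were chosen after the values of the genes had been seen, and a match is a description of the letters only. The starts of Zic2 and Zic5 lie 8738 bases apart on chromosome 14 on opposite strands, and those of Zic1 and Zic4 lie 2236 bases apart on chromosome 9.

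The deposited values are estimated counts corrected for gene length, so that levels can be set beside each other between genes. A level here is the count scaled by TMM and to a common library total (CPM), and the 12 libraries had totals of 17370069 to 30738717 counts. KO RA replicate 3 stood apart. Its TMM factor was 0.394 against 0.872 to 1.28 in the other 11 libraries, and 23.5% of its counts were mitochondrial against 9.10% to 17.7%. Calls of the 9 genes and of the gene lists that rest on it are given also without it. Faf2 had a mean level of 41.6 CPM ± 7.41 (SD, n = 3) in WT NO and 22.7 ± 2.38 in KO NO, without overlap, and 40.7 ± 7.37 in WT RA and 29.7 ± 9.55 in KO RA, with overlap. A count over the whole gene does not check a deletion of 1 exon. Of 13 neural progenitor markers in WT NO, the most abundant were Vim (204 CPM ± 26.2) and Otx2 (149 ± 24.6), Nes was at 49.1 ± 10.0, and Notch1 (1.70 ± 0.710), Fabp7 (0.464 ± 0.0682), Rfx4 (0.431 ± 0.0110) and Hes5 (0.264 ± 0.134) were the lowest. Pou5f1, a defining gene of pluripotent cells, stood at 1850 ± 613 CPM beside them, with Nanog at 52.4 ± 7.75, while Zfp42 was at the floor of 3 counts in every library. Fewer cells that express a gene and less RNA per cell cannot be told apart in these bulk samples.

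**Figure D1:**
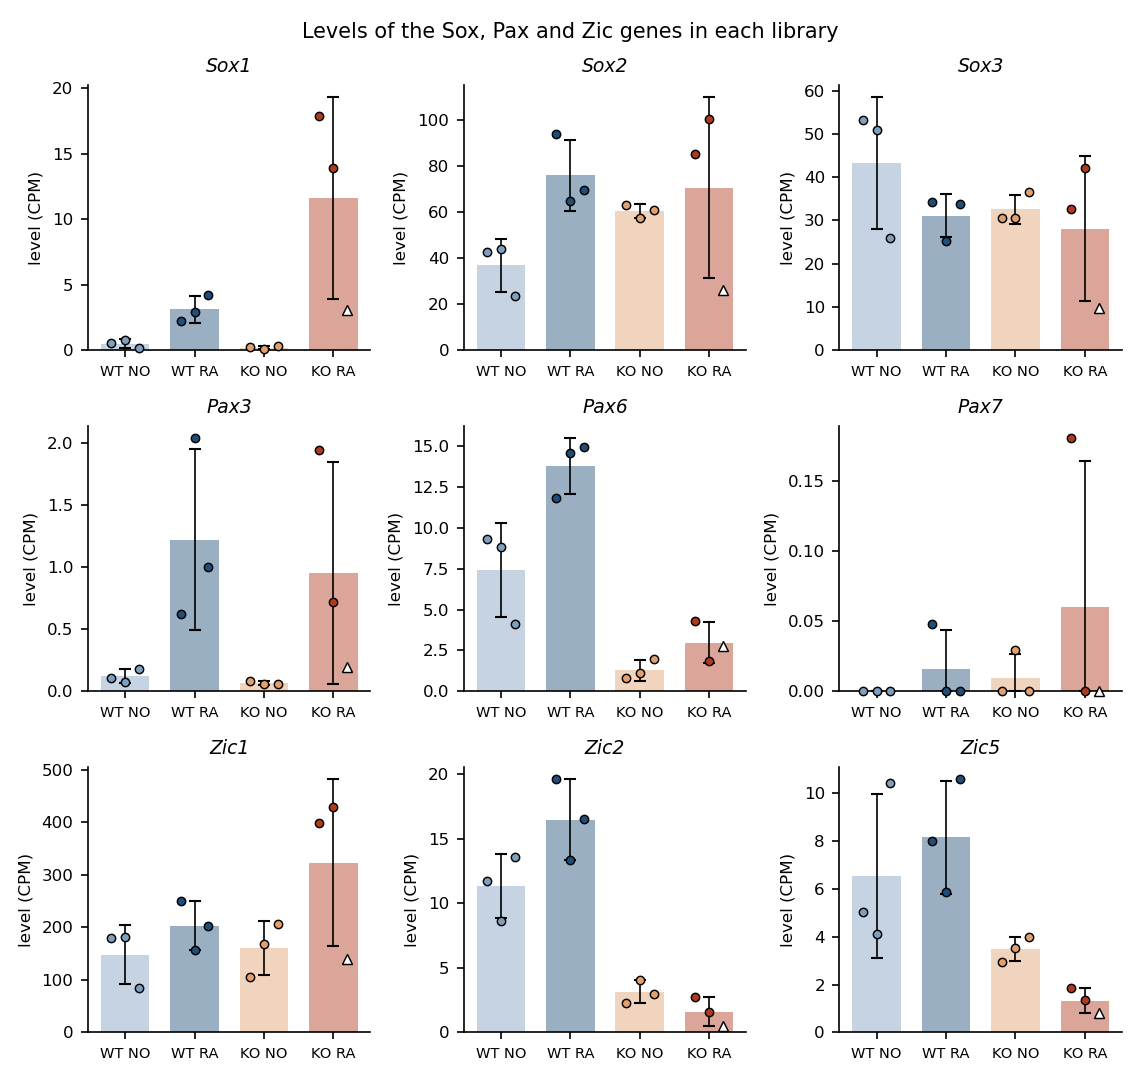
Level of each of the 9 genes (y axis, CPM, from 0) in the 4 groups (x axis). Bars are means, error bars 1 SD (not drawn below 0), circles single libraries and the open triangle KO RA replicate 3. Pax6, Zic2 and Zic5 were lower in every KO library than in every WT library of the same treatment, and Sox1 was at most 0.813 CPM without RA and at least 2.21 CPM with it.

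KO cells had less Pax6 RNA with and without RA and less Zic2 and Zic5 RNA with RA, and Sox1 and Pax3 were higher in KO RA than in KO NO cells. Of the 9 genes, 8 passed the filter on low counts and were tested among 16502 genes. A gene counted as called where edgeR's quasi-likelihood test gave it a p under 0.05 after Benjamini-Hochberg adjustment. In KO NO against WT NO, 1 was called lower (Pax6), as were 0.351% of all tested genes, and none higher (0.788%). In KO RA against WT RA, 3 were called lower (Pax6, Zic2 and Zic5) against 0.358% of all genes, and none higher (0.885%). In KO RA against KO NO, 2 were called higher (Sox1 and Pax3) against 3.89% of all genes, and none lower (1.59%). In WT RA against WT NO, none was called by edgeR in either direction (0.321% and 0.0848% of all genes). There 3 were higher (Sox1, Sox2 and Pax3) and 0 lower where p under 0.05 was left unadjusted, against 6.76% and 5.79% of all genes. DESeq2 on all 12 libraries called 2 higher and 0 lower (3.27% and 2.64% of all genes), and limma-voom with quality weights called 5 higher and 1 lower (10.8% in each direction). The interaction had no gene called by edgeR, among these or all genes (0%). With p left unadjusted, 1 was higher and 2 were lower (5.53% and 3.09% of all genes), and limma-voom called 1 in each direction (3.56% and 2.41%). Without KO RA replicate 3, the calls over all genes rose in number in each comparison. The 8 genes then had 2 lower (4.35% of all genes) and 0 higher (4.43%) in KO NO against WT NO, and 3 lower (5.44%) and 1 higher (4.42%) in KO RA against WT RA. They had 3 higher (5.65%) and 0 lower (5.13%) in WT RA against WT NO, 3 higher (8.48%) and 0 lower (7.54%) in KO RA against KO NO, and 1 higher (0.802%) and 0 lower (0.537%) in the interaction. The libraries of the 2 groups did not overlap for 3 genes that were lower (15.2% of all genes) and 1 that was higher (15.5%) in KO NO against WT NO, for 3 that were lower in KO RA against WT RA (10.9%), for 4 that were higher in WT RA against WT NO (15.1%), and for 2 that were higher (13.2%) and 1 that was lower (16.9%) in KO RA against KO NO. For Pax3, which is among the 2 higher in KO RA against KO NO, the separation rested on the scaling of KO RA replicate 3, with 2 counts. The KO comparisons share libraries with the RA comparisons, so the counts are not independent of each other.

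**Figure D2:**
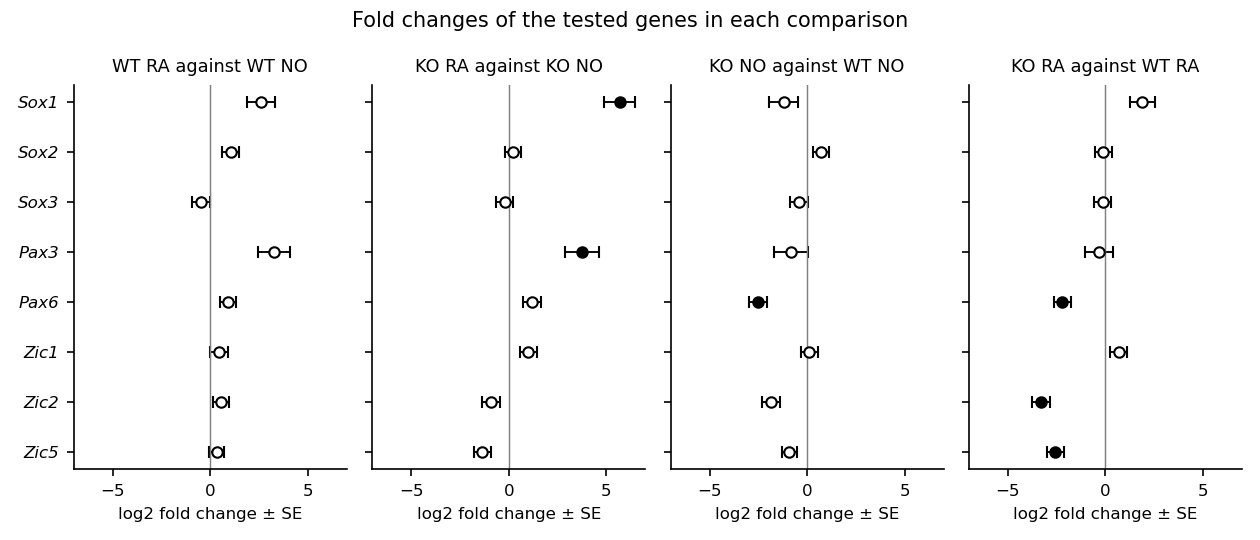
Log2 fold change (x axis, point) with its standard error (bar) of the 8 tested genes in 4 comparisons, filled where the edgeR adjusted p was under 0.05. The filled points are Sox1 and Pax3 in KO RA against KO NO, Pax6 in KO NO against WT NO, and Pax6, Zic2 and Zic5 in KO RA against WT RA. The Pax3 point in KO RA against KO NO is a fitted value against a group at the floor.

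Sox1 rose with RA in KO cells, with the largest fitted change of the 8 tested genes over the comparisons. Its levels were 0.234, 0.118 and 0.307 CPM in KO NO and 17.9, 13.9 and 3.07 CPM in KO RA, where the lowest value is replicate 3. All 3 KO RA libraries were above all 3 KO NO libraries. The log2 fold change was 5.70 ± 0.79 (SE) (edgeR adjusted p = 0.00373). In WT cells, Sox1 stood at 0.598, 0.813 and 0.152 CPM in WT NO and at 2.21, 2.96 and 4.25 CPM in WT RA. These groups did not overlap either, but the log2 fold change of 2.59 ± 0.70 did not pass the test (edgeR adjusted p = 0.149). KO RA and WT RA overlapped through KO RA replicate 3, and their log2 difference of 1.90 ± 0.65 was not called (edgeR adjusted p = 0.185).

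The KO rise of Sox1 was called in all 19 alternative analyses that kept the gene, with adjusted p from 2.23e-13 to 0.0348, and was 6.13 ± 0.58 without KO RA replicate 3 (edgeR adjusted p = 2.20e-04). Sox1 held 8, 4 and 11 rounded counts in KO NO and 17, 22 and 5 in WT NO. It passed the filter on low counts only with RA libraries, where it was high, so the KO call is not independent of the filter. The setting of at least 10 counts in every library did not keep the gene. Whether Sox1 rose more with RA in KO than in WT cells was tested as an interaction, which came to 3.11 ± 0.98 on the log2 scale and was not called (edgeR adjusted p = 0.430). Without KO RA replicate 3 the interaction was 3.52 ± 0.74 with an edgeR adjusted p of 0.0484, in a range of 0.0176 to 0.787 over its 17 alternatives. Leaving out that 1 library also brought Sox1 past the threshold in WT RA against WT NO (edgeR adjusted p = 0.0118, in a range of 0.00134 to 0.402 over the alternatives) and in KO RA against WT RA (0.0163, in a range of 0.000376 to 0.461).

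Sox2 and Sox3 were present in every group, and neither was called in any comparison by edgeR. Sox2 levels were 42.9, 44.3 and 23.6 CPM in WT NO, 93.9, 65.0 and 69.5 in WT RA, 63.4, 57.7 and 60.8 in KO NO, and 85.4, 101 and 26.0 in KO RA. WT NO was the lowest group and overlapped with neither WT RA nor KO NO. The log2 fold change was 1.04 ± 0.42 in WT RA against WT NO (edgeR adjusted p = 0.335) and 0.72 ± 0.42 in KO NO against WT NO (edgeR adjusted p = 0.568). Without KO RA replicate 3 the first of these was called (edgeR adjusted p = 0.0169, in a range of 0.00245 to 0.664 over the alternatives). Sox3 levels were 53.3, 50.8 and 25.9 CPM in WT NO, 34.2, 25.3 and 33.9 in WT RA, 30.6, 30.5 and 36.5 in KO NO, and 32.6, 42.1 and 9.70 in KO RA. Groups of Sox3 that stood next to each other in the order of their means overlapped.

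The make-up of the SoxB1 RNA within a library does not depend on the scaling between libraries, and it set WT NO apart. Sox2 made up 44.3%, 46.1% and 47.6% of the summed level of the 3 genes in WT NO. It made up 72.1%, 69.7% and 64.6% in WT RA, 67.3%, 65.3% and 62.3% in KO NO, and 62.9%, 64.2% and 67.2% in KO RA. Sox3 was thus the most abundant SoxB1 RNA in each WT NO library and Sox2 in each of the other 9 libraries, KO RA replicate 3 included. The share of Sox2 had a mean of 65.0% ± 2.51 (SD, n = 3) in KO NO and 64.8% ± 2.20 in KO RA, which overlapped. Sox1 took 0.607% ± 0.271 in WT NO against 2.93% ± 1.15 in WT RA, and 0.226% ± 0.0937 in KO NO against 9.97% ± 2.83 in KO RA. In this share the KO RA libraries, at 13.2%, 8.89% and 7.84%, lay above every WT RA library, the highest of which was at 3.96%. These shares are descriptions over 3 libraries a group and were not tested.

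**Figure D3:**
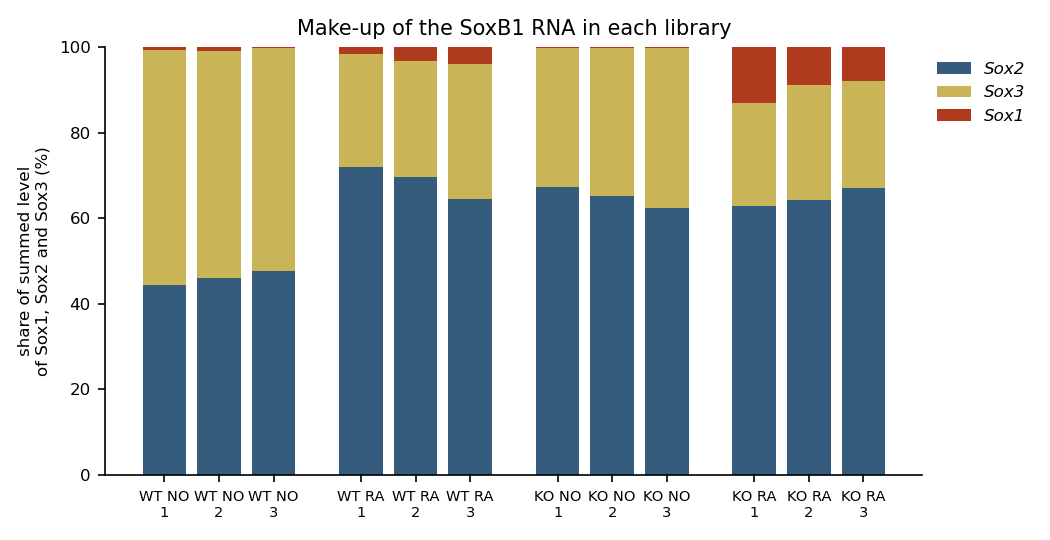
Share of the summed Sox1, Sox2 and Sox3 level (y axis, %) that each gene made up in each of the 12 libraries (x axis, grouped by genotype and treatment). Sox2 was between 44.3% and 47.6% in WT NO and between 62.3% and 72.1% in all other libraries, and Sox1 was at its widest in KO RA.

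Pax6 was lower in KO than in WT cells under both treatments. Its levels were 9.29, 8.79 and 4.12 CPM in WT NO and 0.790, 1.10 and 2.01 CPM in KO NO. They were 11.8, 14.6 and 14.9 CPM in WT RA and 4.33, 1.84 and 2.77 CPM in KO RA. KO and WT did not overlap under either treatment. The log2 fold change was -2.50 ± 0.45 in KO NO against WT NO (5.67-fold lower, edgeR adjusted p = 0.0264) and -2.21 ± 0.44 in KO RA against WT RA (4.62-fold lower, edgeR adjusted p = 0.0396). With RA, Pax6 did not overlap between WT NO and WT RA, yet neither the WT response (0.90 ± 0.42, edgeR adjusted p = 0.418) nor the KO response (1.19 ± 0.44, edgeR adjusted p = 0.135) was called. Pax6 kept its direction in all 20 alternatives of both KO comparisons. It was called in 12 of them without RA (adjusted p from 8.84e-06 to 0.136) and in 7 with RA (adjusted p from 6.33e-05 to 0.164). The call without RA was lost when WT NO replicate 1 or 2, any WT RA replicate, or KO NO replicate 1 or 2 was left out (edgeR adjusted p between 0.0505 and 0.136). The call with RA was lost without any 1 library except WT NO replicate 3 or KO RA replicate 3 (edgeR adjusted p between 0.0506 and 0.164), and in 3 of 8 other settings. The difference with RA was -2.17 ± 0.49 without KO RA replicate 3 (edgeR adjusted p = 0.0221).

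Pax3 was scarce without RA, and its rise with RA was called in KO cells. WT NO libraries held 3, 2 and 6 rounded counts and KO NO libraries 3, 2 and 2, which puts KO NO at the floor. With RA the levels were 0.625, 2.04 and 1.00 CPM in WT RA and 1.94, 0.715 and 0.198 CPM in KO RA. Neither RA group overlapped with its untreated group on this scale. KO RA replicate 3 held 2 counts, no more than the KO NO libraries, and stood above them only through its TMM factor of 0.394. With KO NO set to the floor of 3 counts per library, the mean of KO RA was about 11-fold higher. KO RA replicate 3, itself under that floor, entered this mean at its 2 counts. This ratio was 5.26-fold, 12.3-fold or 15.3-fold without KO RA replicate 1, 2 or 3. In the edgeR fit, which used the rounded counts rather than this ratio, the KO rise was called (edgeR adjusted p = 0.0315, and 0.00526 without KO RA replicate 3). In WT cells the log2 fold change was 3.27 ± 0.83 and missed the threshold (edgeR adjusted p = 0.128). The KO call held in 11 of 17 alternatives (adjusted p from 9.86e-04 to 0.132) and was lost without WT RA replicate 3, any KO NO replicate or KO RA replicate 1 (edgeR adjusted p between 0.0559 and 0.132). Pax3 passed the filter on low counts only through RA libraries, where it was high, so this call is not independent of the filter. The fits on the KO groups alone did not keep the gene. The WT rise was called without KO RA replicate 3 (edgeR adjusted p = 0.0168, in a range of 0.00379 to 0.379 over the alternatives). The difference between the 2 responses was 0.48 ± 1.08 (edgeR adjusted p = 0.904).

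Pax7 was not detectable above the floor in WT NO, WT RA or KO NO, which together held 2 rounded counts, and KO RA replicate 1 held 4 counts (0.180 CPM). It did not pass the filter on low counts and was not tested. Of 6 further Pax genes, Pax2 was the only one tested and was not called, and Pax1 and Pax4 were at the floor in every library.

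Zic2 and Zic5 were lower in KO RA than in WT RA cells. Zic2 levels were 11.8, 8.64 and 13.6 CPM in WT NO, 19.6, 13.3 and 16.5 in WT RA, 2.31, 4.09 and 3.01 in KO NO, and 2.75, 1.57 and 0.495 in KO RA. Every KO library was below every WT library. The log2 fold change was -3.30 ± 0.48 in KO RA against WT RA (9.87-fold lower, edgeR adjusted p = 0.0112). In KO NO against WT NO it was -1.85 ± 0.44 and missed the threshold (edgeR adjusted p = 0.0811). Without KO RA replicate 1 or replicate 3, which enter that comparison only through the shared spread, it was called (edgeR adjusted p = 0.0400 and 0.00478, in a range of 3.01e-07 to 0.307 over the alternatives). The call with RA held in 16 of 19 alternatives (adjusted p from 9.23e-12 to 0.109) and was lost without WT RA replicate 1 or 3 (edgeR adjusted p between 0.0544 and 0.0717). The difference was -2.95 ± 0.35 without KO RA replicate 3, where Zic2 had 5 counts (edgeR adjusted p = 0.00161).

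Zic5 levels were 5.03, 4.10 and 10.5 CPM in WT NO, 8.02, 5.86 and 10.6 in WT RA, 2.95, 3.52 and 3.99 in KO NO, and 1.85, 1.36 and 0.792 in KO RA. The KO groups overlapped neither with the WT groups nor with each other. The log2 fold change was -2.58 ± 0.43 in KO RA against WT RA (5.97-fold lower, edgeR adjusted p = 0.0216) and -0.90 ± 0.40 in KO NO against WT NO (edgeR adjusted p = 0.398). In KO RA against KO NO it was -1.35 ± 0.42 (edgeR adjusted p = 0.0886), and it was called there without WT NO replicate 3 (edgeR adjusted p = 0.0393, in a range of 0.0147 to 0.223). The call between KO RA and WT RA held in 14 of 19 alternatives (adjusted p from 2.02e-06 to 0.109) and was lost without any 1 of the WT RA libraries (edgeR adjusted p between 0.0600 and 0.109). It was -2.35 ± 0.44 without KO RA replicate 3, where Zic5 had 8 counts (edgeR adjusted p = 0.0110). The genotype difference was wider with RA than without it by -1.45 ± 0.62 for Zic2 and -1.67 ± 0.58 for Zic5 on the log2 scale, and neither interaction was called (edgeR adjusted p = 0.554 and 0.468).

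**Figure D4:**
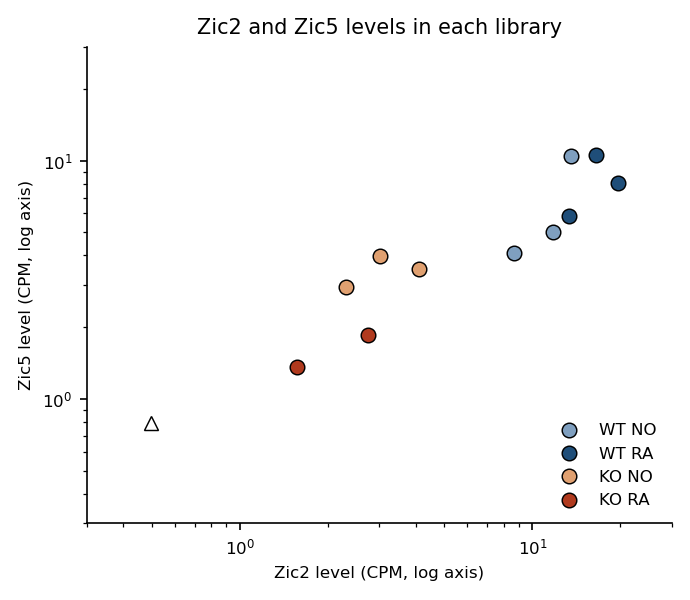
Level of Zic5 (y axis, CPM, log axis) against that of Zic2 (x axis, CPM, log axis) in each of the 12 libraries, coloured by group, with KO RA replicate 3 as an open triangle. The 6 KO libraries lie below and to the left of the 6 WT libraries, at no more than 4.09 CPM of Zic2 and 3.99 CPM of Zic5.

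Zic1 was the most abundant of the 9 genes and did not share this pattern. Its levels were 179, 182 and 84.3 CPM in WT NO, 250, 156 and 202 in WT RA, 106, 168 and 207 in KO NO, and 399, 430 and 140 in KO RA. Neighbouring groups in the order of the means overlapped, and edgeR called no comparison of Zic1 with all libraries, while limma-voom called it higher in KO RA against KO NO (adjusted p = 0.00321) and against WT RA (adjusted p = 0.0286). Without KO RA replicate 3, KO RA against KO NO was 1.36 ± 0.34 on the log2 scale (edgeR adjusted p = 0.0213, in a range of 0.00321 to 0.417 over the alternatives). Zic1 overlaps Zic4 in part on the opposite strand, and reads of the shared stretch cannot be told apart if the counting did not use strand. Zic4 itself had means of 3.34 and 1.76 CPM in WT NO and WT RA and of 3.58 and 5.91 CPM in KO NO and KO RA, and it was not called by edgeR on all libraries. It was called in KO RA against WT RA without KO RA replicate 3 (2.16 ± 0.47, edgeR adjusted p = 0.0189), in a range of 0.0136 to 0.440 over 20 alternatives.

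Neighbouring genes were examined for Pax6 and the Zic2 and Zic5 pair, and none was called. The median log2 fold change of the tested genes on chromosome 14, which holds Zic2 and Zic5, was -0.02 in KO NO against WT NO and 0.14 in KO RA against WT RA. On chromosome 2, which holds Pax6, it was -0.08 and 0.11, where the medians of all tested genes were -0.02 and 0.09. Elp4, a subunit of the Elongator complex whose gene overlaps Pax6 on the opposite strand, had log2 fold changes of -0.13 ± 0.25 and -0.19 ± 0.25 in these comparisons (edgeR adjusted p = 0.943 and 0.742). Rcn1, on the other side of Pax6, had -0.15 ± 0.28 and 0.52 ± 0.28 (edgeR adjusted p = 0.941 and 0.351). Clybl, the next tested gene beyond Zic5 at 284 kb, had -0.66 ± 0.47 and -1.28 ± 0.48 (edgeR adjusted p = 0.686 and 0.220). The next tested gene beyond Zic2, a gene without a symbol at 5.63 kb, had -0.90 ± 1.60 and -2.06 ± 1.64 (edgeR adjusted p = 0.933 and 0.539).

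Related genes were counted in the same fit, and all those named below as called were also called without KO RA replicate 3. With all libraries, 0.321% of all tested genes were called higher in WT RA against WT NO. The share was 3.89% in KO RA against KO NO and 0.885% in KO RA against WT RA. Of 13 further Sox genes tested, Sox9, a factor of glial and crest progenitors, was called in WT RA against WT NO (log2 fold change 2.74 ± 0.37, edgeR adjusted p = 0.0196) and in KO RA against KO NO (4.94 ± 0.41, edgeR adjusted p = 1.91e-04). From the list of Zic and Gli genes, Gli2, a Hedgehog effector, was called in KO RA against KO NO (2.29 ± 0.53, edgeR adjusted p = 0.0327). When KO RA replicate 3 was left out, 4 of the 13 Sox genes were called higher in WT RA against WT NO (5.65% of all genes) and 6 in KO RA against KO NO (8.48%), and Gli2 was at 2.72 ± 0.33 in the latter. Among 11 partner factors of Sox and Pax proteins, 3 were called higher in that comparison, the homeobox gene Meis1 (3.77 ± 0.53, edgeR adjusted p = 0.00395) and the POU genes Pou3f2 and Pou3f3. The median of the 11 was 1.55 there beside 0.11 over all tested genes. Of 11 known targets tested, Fabp7, a fatty-acid binding protein of radial glia, was higher in KO RA than in KO NO (8.0 ± 0.95, edgeR adjusted p = 0.00157) and than in WT RA (3.89 ± 0.76, edgeR adjusted p = 0.0376). Its mean in KO RA was 70.4 CPM ± 74.3, an SD above the mean, and without KO RA replicate 3 the values were 6.67 ± 0.61 and 2.56 ± 0.49 (edgeR adjusted p = 1.62e-04 and 0.0124). The counts called higher without that library in KO RA against KO NO were 6 of 11 partner factors and 4 of 11 targets, beside 8.48% of all genes. Nes and the proneural gene Neurog2 were also called in KO RA against KO NO, and Neurog2 was at the floor in KO NO and had a mean of 1.16 CPM ± 0.666 in KO RA.

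Markers of several cell types moved in the comparison in which Sox1 and Pax3 rose, and their part in that rise was not tested. With KO RA replicate 3 left out, the numbers called higher there were 7 of 13 neural progenitor, 4 of 12 neuron, 5 of 14 border and crest, 4 of 8 dorsal neural tube, 6 of 10 mesenchymal and 2 of 5 myogenic markers. In that setting 1 progenitor, 1 neuron, 1 crest and 1 dorsal gene were called lower, the last 2 being Msx1, which is in both lists. Over all genes, 8.48% were called higher and 7.54% lower. With all libraries, 6 of 13 neural progenitor markers were called higher in KO RA against KO NO and none lower (3.89% and 1.59% of all genes). The summed level of the 13 was 394 to 440 CPM in KO NO and 789 to 983 CPM in KO RA. Much of that rise was Vim, with means of 130 and 542 CPM (2.06 ± 0.30, edgeR adjusted p = 0.00472). Otx2 went the other way, from 151 to 68.5 CPM without overlap (edgeR adjusted p = 0.157, and 0.0224 without KO RA replicate 3). Of 12 neuron markers, 3 were called higher, Gap43, Map2 and Tubb3, and the sums of the 12 were 156 to 164 and 209 to 300 CPM. Lower in KO RA without overlap were Ina (34.4 to 16.2 CPM), Nefl (39.0 to 13.7 CPM) and Rbfox3 (1.62 to 0.444 CPM), none of them called. Without KO RA replicate 3, Ina was called lower (edgeR adjusted p = 0.0268). Of 14 tested neural plate border and crest markers, 4 were called higher and Msx1 lower. Of 8 tested dorsal neural tube genes, 4 were called higher, among them Bmp4 and Wnt1, and Msx1 lower. Wnt1, a signal of the dorsal midline, was listed at 0 in all 6 untreated libraries and had 0.804 CPM ± 0.689 in WT RA and 0.606 ± 0.178 in KO RA. Of 10 mesenchymal markers, 6 were called higher, led by Col1a2 and Prrx1, and their sums were 21.5 to 86.4 CPM in WT NO and 102 to 277 in WT RA, while KO NO was at 18.1 to 26.5 and KO RA at 190 to 1375. Of 5 tested myogenic markers, Meox1 and Myog were called, while Myf5, Myf6 and Msgn1 were at the floor in every library. Without RA, Myog was at 0 CPM and Meox1 had means of 0.0348 CPM in WT NO and 0 in KO NO. Genes this scarce without RA, Wnt1, Neurog2 and Pou3f2 among them, passed the filter on low counts only through RA libraries. The numbers of listed genes called higher with RA are therefore not independent of that filter.

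In the comparisons between genotypes, fewer than 3 genes of each of these lists were called with all libraries. Over all tested genes, 0.351% were called lower and 0.788% higher in KO NO against WT NO, and 0.358% and 0.885% in KO RA against WT RA. Foxd3, a crest and pluripotency factor, fell in KO NO against WT NO (-5.54 ± 0.65, edgeR adjusted p = 0.00338). It also fell in KO RA against WT RA (edgeR adjusted p = 0.0221), where it was at the floor in all 3 KO RA libraries. No neural progenitor marker was called in KO NO against WT NO, and the median of the 13 was -0.65 beside -0.02 over all tested genes. In KO RA against WT RA, Fabp7 of the progenitor list, Gap43 of the neuron list and Ets1 of the crest list were called higher, and no mesenchymal or dorsal neural tube gene was. When KO RA replicate 3 was left out, 2 progenitor markers (Cdh2 and Msi1), 1 neuron marker, 1 mesenchymal marker and 1 crest marker were called lower and 2 crest markers higher in KO NO against WT NO. In the same setting 6 progenitor, 2 neuron, 2 crest, 3 mesenchymal and 2 dorsal neural tube genes were called higher in KO RA against WT RA. Over all genes in that setting, 4.35% were called lower and 4.43% higher in KO NO against WT NO, and 4.42% higher in KO RA against WT RA.

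Across the 12 libraries, the log2 levels of Zic2 and Zic5 had a Pearson correlation of 0.94 (0.90 without KO RA replicate 3), the highest among the 28 pairs of tested members. Sox1 and Pax3 had 0.82 (0.86), and Pax6 and Zic2 had 0.72 (0.83). These values are descriptions over libraries that share treatments, genotypes and depth. Of all tested genes, those most like Sox1 were Fat4, an atypical cadherin (0.98), Plxna2, a semaphorin receptor (0.97), and Il4ra (0.97). The genes most like Zic2 were Porcn, the enzyme that acylates Wnt proteins (0.97), Ppt2 (0.95) and Slc25a1 (0.95), and those most like Zic5 were Plin3 (0.96), Porcn (0.95) and Zic2 itself. Rgl3 (0.95) led for Pax6, before Gm11627 and Fahd1, and Plppr3 (0.96) led for Pax3, before St3gal1 and Gpc6.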

How the data were processed

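RNA of 12 cultures of NE-4C cells, 3 in each of the groups WT NO, WT RA, KO NO and KO RA, was sequenced by mRNA-Seq. According to the methods, the authors ran the default nf-core/rnaseq pipeline (STAR, Salmon) on mouse genome GRCm39. The authors deposited estimated counts per gene, and their name and their fall with exonic length (Spearman correlation -0.685 over 3851 genes above 0 in 1 library) are those of counts scaled from TPM. They sum to each library's total, are not normalized between libraries and are not fragment numbers.

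After rounding, the counts went into edgeR 4.0.16 (R 4.3.3). The 16502 genes that passed filterByExpr were scaled by TMM and fitted with 1 coefficient per group over all 12 libraries by robust quasi-likelihood (common dispersion 0.215). Standard errors were derived from each fold change and its F statistic. A group with at most 3 counts in every library was at the floor, which was 0.0837 to 0.297 CPM in single libraries. Correlations used log2 CPM with a prior count of 2. DESeq2 1.42.0, limma 3.58.1, other filters and samples, the replicate number as a term and each library left out were alternatives. P-values measure the spread between passages.

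The members, the lists of related genes (other Sox, Pax, and Zic and Gli genes, partner factors, known targets and markers of 10 cell types, dorsal neural tube genes included in a list of their own) and the tests were chosen with earlier results of these data known. Genes were mostly named from a list where they were called with the 3 smallest adjusted p in a comparison or, for the main cell types, had its 2 highest levels, and as the 3 genes most correlated with a called member. Some listed genes outside this rule were also named, for going the other way, for their level, or for a call without KO RA replicate 3. Neighbouring genes and promoter motifs were chosen after the values were seen. Positions came from GENCODE and the sequences from GRCm39. The result of 1 listed gene is not reported here.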

Additional observations from a re-analysis of the deposited data

How the results depend on the processing

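Of 760 alternative values of the log2 fold changes of the 8 genes in 5 comparisons, 17 had the opposite sign to the value reported, 35 lost a call and 39 gained one. Signs turned only for values that were not called. With limma-voom they turned for Sox2 (0.24), Sox3 (0.20) and Pax3 (0.14) in KO RA against WT RA, for Sox3 (0.16) in KO RA against KO NO and for Zic1 (-0.085) in KO NO against WT NO. Leaving out single libraries moved Sox2 between -0.44 and 0.28, Sox3 between -0.54 and 0.26 and Pax3 between -1.33 and 0.24 in KO RA against WT RA, Sox2 between -0.11 and 0.61 and Sox3 between -0.61 and 0.19 in KO RA against KO NO, and Zic1 between -0.17 and 0.335 in KO NO against WT NO. In the interaction it moved Sox3 between -0.13 and 0.66, Pax3 between -0.51 and 1.05 and Pax6 between -0.043 and 0.77. Members called lower in KO NO against WT NO (1) numbered 2 with DESeq2 on all 12 libraries or on the groups compared, 2 with edgeR on the groups compared, 3 with limma-voom and 0 to 2 without single libraries, and those called higher (0) numbered 1 with DESeq2 on the groups compared and 1 with limma-voom. In KO RA against WT RA the 3 lower numbered 0 with at least 10 counts in every library, which leaves fewer members to test, 0 with edgeR on the groups compared and 0 to 3 without single libraries, and the 0 higher numbered 1 with DESeq2 on all libraries, 2 with limma-voom and 0 to 1 without single libraries. In WT RA against WT NO the 0 higher numbered 2 with DESeq2 on all libraries, 3 on the groups compared, 5 with limma-voom, 1 with edgeR on the groups compared and 0 to 3 without single libraries, and the 0 lower numbered 1 with limma-voom. In KO RA against KO NO the 2 higher numbered 1 with DESeq2 on the groups compared, 4 with limma-voom, 0 with at least 10 counts, 1 with edgeR on the groups compared and 1 to 3 without single libraries, and the 0 lower numbered 1 with either DESeq2 fit, 1 with limma-voom and 0 to 1 without single libraries. In the interaction limma-voom called 1 higher and 1 lower, and leaving out single libraries 0 to 1 higher. The cause of these differences was not tested. Replicate numbers did not pair the samples, since same-numbered samples of different groups had correlations of -0.17 to 0.07. With a replicate block, 0 members were called lower in KO NO against WT NO, 1 lower in KO RA against WT RA and 1 higher in KO RA against KO NO. CPM without TMM factors put KO NO at 70.1 for Sox2, 37.7 for Sox3 and 4.03 for Zic5, beyond 1 SD of the values reported. Without KO RA replicate 3, the 3 genes most like a member shared 0 with the list from 12 libraries for Pax3, Pax6, Zic1 and Zic2, 1 for Sox3 and Zic5, 2 for Sox1 and 3 for Sox2. Low counts limit several of these values, with 2 to 43 rounded counts of Pax3 in the KO libraries and 5 to 61 of Zic2 and 8 to 41 of Zic5 in KO RA, and Pax7 is below what these depths can compare.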

Other observations

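Genes of further lineages were counted in the same fit. Over all tested genes, 3.89% were called higher in KO RA against KO NO and 0.351% lower in KO NO against WT NO. Of 5 endothelial markers, 3 passed the filter on low counts and were tested. Kdr (log2 fold change 4.45 ± 0.97, edgeR adjusted p = 0.0253) and Tek (2.40 ± 0.57, edgeR adjusted p = 0.0360) were called higher in KO RA against KO NO. The summed level of all 5 was 1.07 to 2.01 CPM in KO NO and 4.46 to 13.9 CPM in KO RA. Mbp, a myelin protein, was called in the same comparison among 4 tested genes of the oligodendrocyte lineage (2.80 ± 0.70, edgeR adjusted p = 0.0431). Gata4 was called lower in KO NO against WT NO among 4 tested endoderm markers (-2.21 ± 0.29, edgeR adjusted p = 0.00531), with 4.89 CPM ± 1.06 (SD, n = 3) in WT NO and 1.05 ± 0.0987 in KO NO. None of 3 tested astroglia markers was called. Gja1, a gap junction protein, had means of 189 CPM ± 45.4 in WT NO and 223 ± 53.3 in KO NO, while Aqp4 and S100b were at the floor in every library.

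None of 7 tested pluripotent cell markers was called by edgeR in any comparison with all libraries. Leaving out KO RA replicate 3, Pou5f1 was called lower in KO RA against WT RA (-1.17 ± 0.26, edgeR adjusted p = 0.0208, in a range of 1.62e-05 to 0.391 over 20 alternatives) and Nanog higher in WT RA against WT NO (0.60 ± 0.15, edgeR adjusted p = 0.0344, in a range of 0.00699 to 0.796). Pou5f1, which can pair with Sox2 on DNA, had 2413 CPM ± 333 in WT RA and 984 ± 183 in KO RA, and the groups did not overlap (log2 fold change with all libraries -1.29 ± 0.32, edgeR adjusted p = 0.0742). In KO RA replicate 3 the levels of 7 of the 8 tested Sox, Pax and Zic genes were below those of KO RA replicates 1 and 2, and Pax6 (2.77 CPM) lay between them.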
